A study of Gallus gallus with 6 samples.

Results

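The genes described here carry glucose into the cell and turn it into lactate. They are the glucose transporter genes SLC2A1 and SLC2A3, the glycolytic enzyme genes TPI1, GAPDH, PGK1, PGAM1 and ENO1, and the lactate dehydrogenase genes LDHA and LDHB. They were taken by name from the deposited expression table, in which all 9 of 9 have a row, among 17684 genes in all. RNA came from the cochlear duct of chicken embryos (Gallus gallus) at embryonic day 6.5, with no treatment or genetic change named in the labels. Ducts were cut into a proximal, a middle and a distal piece, and pieces of the same region were pooled, with the number of embryos in a pool not given in the sources used here. Each piece held future basilar papilla (the hearing epithelium of birds) and future tegmentum vasculosum (the secretory epithelium facing it), and the distal piece also held the prospective lagena, a balance organ at the tip of the duct.

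Glycolysis splits glucose into pyruvate in the cytosol and yields ATP without oxygen. Lactate dehydrogenase interconverts pyruvate and lactate and works as a tetramer of A and B subunits. The A subunit, encoded by LDHA, prevails in skeletal muscle, and the B subunit, encoded by LDHB, in heart. LDHA, SLC2A1, PGK1 and other glycolytic genes are known in mammals as targets of the hypoxia-inducible factors. GAPDH is often used as a reference gene for expression.

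Each region had 2 libraries, called the first and the second set after the column names, and values are RPKM, read counts divided by gene length and library alignments. First-set libraries held 9262860 to 23537713 alignments and second-set libraries 56103107 to 73918748. One read per kilobase was thus worth 0.0135 to 0.108 RPKM, and the lowest member value, 6.86 RPKM for SLC2A3, lay far above that. The sets differed more than distal and proximal for most members, but not for LDHA and SLC2A1. Averaged over regions on the log2(RPKM + 1) scale, PGK1 was 1.94-fold and LDHA 1.54-fold higher in the first set. SLC2A1 and SLC2A3 were at 0.817 and 0.689 times their second-set level. Within the first set the proximal library had a summed RPKM of 822531, against 763039 in the middle and 757443 in the distal one. The second-set libraries summed to less, at 482890, 490156 and 480760 in the same order. Summed over the 9 members, the share of all RPKM nevertheless ran from 1.13% to 1.38%. Differences are in log2(RPKM + 1), and their SE comes from a limma model that adds the set as a replicate block. The call is an adjusted p below 0.05 over all 12559 genes tested, which include all 9 members. The main fit had no block, and the fit with the block was an alternative. Without the block limma called 0 genes in any pair of regions. There 508 genes had an unadjusted p under 0.05 between distal and proximal, 111 between middle and proximal and 210 between distal and middle. With the block it called 66 between distal and proximal, or 0.526% of the genes tested, and 0 in each of the other pairs, where 484 (middle against proximal) and 960 (distal against middle) had an unadjusted p under 0.05. In bulk pieces, more RNA per cell and more cells of an expressing type cannot be told apart. The labels call the libraries biological replicates.

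Leaving out 1 proximal library in the model with the block leaves 1 residual degree of freedom. The proximal library that remains is fitted exactly, so the residual spread comes from the middle and distal libraries alone. Such fits called many more genes, so only sizes of differences are given from them for the members. Between distal and proximal 6.35% of all genes passed when the first-set proximal library was left out, and 55.7% when the second was. Between middle and proximal the shares were 0.390% and 44.5%, and between distal and middle 9.80% and 9.03%. Members other than LDHA passed in no fit outside these, and LDHA passed in others only between distal and proximal. Differences without 1 proximal library are given below for some pairs that include the proximal piece.

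LDHA exceeded its proximal level in the distal piece by 2.26 ± 0.19 in log2, and with the block it was the 1 member that passed the threshold. In the main fit, without the block, no member passed. It measured 47.0 RPKM in the first and 31.0 in the second proximal library, 74.1 and 44.4 in the middle, and 227 and 154 in the distal. Both distal libraries lay above all 4 others, and the middle library lay between the ends in each set. Within the sets the distal level was 4.84-fold and 4.96-fold the proximal level. The adjusted p in limma was 0.0293 with the block and 0.599 without it, with an unadjusted p of 0.00134 in the latter. With the block LDHA had the rank of 11 among all genes by p. With the block and no filter on low values the adjusted p was 0.195, which ends the call. Without the first-set proximal library the difference was 2.23 with the block and 2.55 without it.

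The gain of LDHA lay mostly between the middle and the distal piece. Distal exceeded middle by 1.69 ± 0.19 in log2 (3.07-fold and 3.46-fold in the sets), and middle exceeded proximal by 0.58 ± 0.19 (1.58-fold and 1.43-fold). Neither passed in limma, with blocked adjusted p = 0.156 and 0.888. The proximal and middle libraries overlapped across sets, since the first proximal library (47.0 RPKM) lay above the second middle one (44.4 RPKM). With the block, middle against proximal was 0.60 in log2 without the second-set proximal library.

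LDHB did not follow LDHA. Its libraries measured 949 and 510 RPKM in the proximal, 958 and 533 in the middle and 799 and 430 in the distal piece, so that the distal value was the lowest in each set. The sets stood further apart than the regions, and the regions overlapped. The difference between distal and proximal was -0.25 ± 0.21 (95% interval -0.76 to 0.27, limma blocked adjusted p = 0.550), with -0.25 in the first and -0.24 in the second set. An increase of LDHB as large as that of LDHA lay outside this interval.

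**Figure D1:**
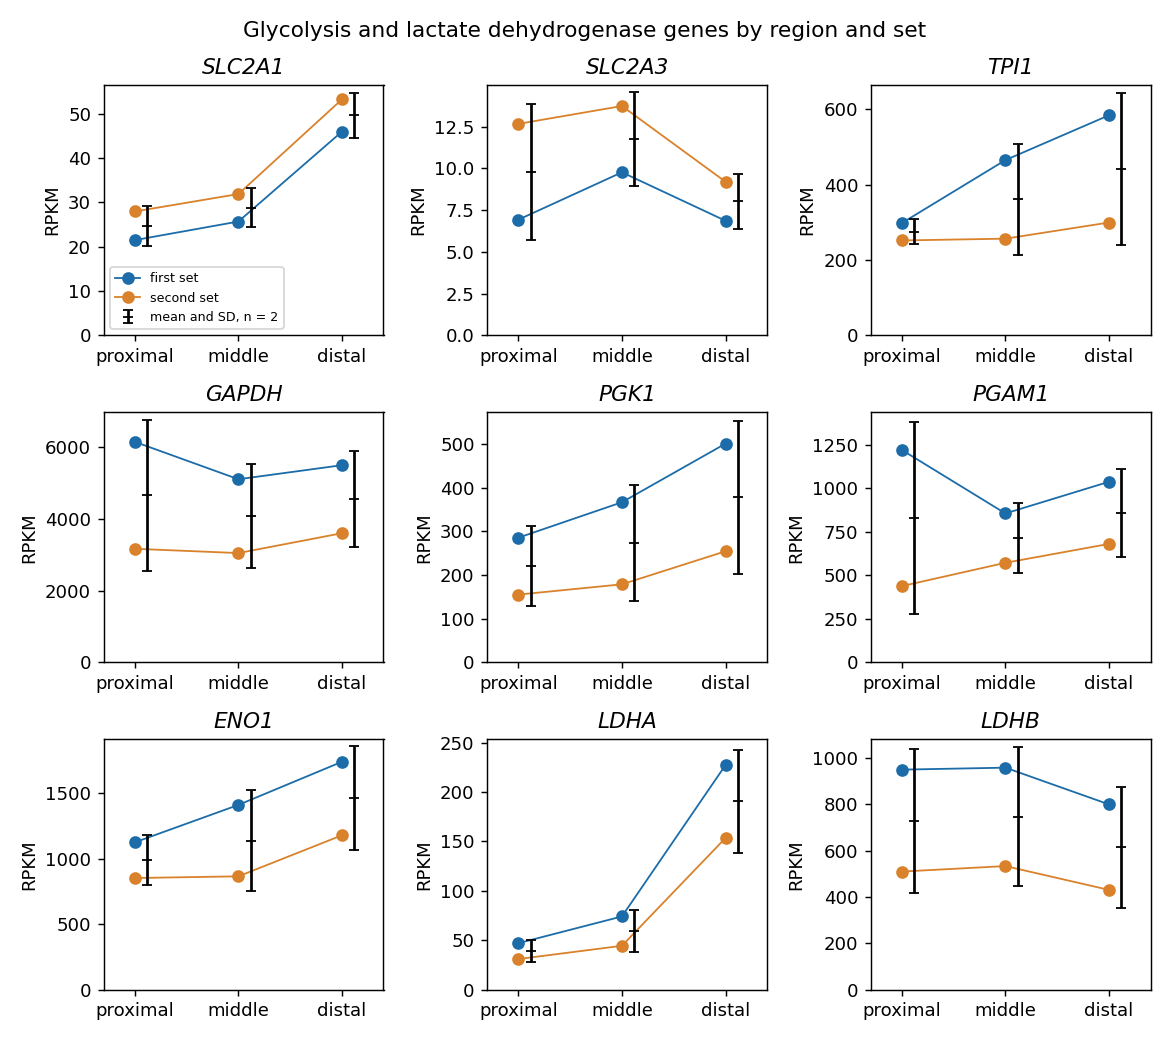
RPKM (vertical axis, from 0) of each of the 9 genes by region, with a line for each set and the mean and SD of n = 2 libraries in black. LDHA goes from 31.0 to 47.0 RPKM in the proximal to 154 and 227 RPKM in the distal piece, while LDHB is lowest in the distal piece of each set.

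Because LDHA and LDHB were read in the same libraries, their proportion removes what a library does to both alike. LDHA made up 4.72% and 5.73% of the summed RPKM of both genes in the proximal piece, 7.18% and 7.69% in the middle and 22.1% and 26.3% in the distal piece. The regions did not overlap, and the order was the same in both sets. The mean was 5.22% ± 0.715 (SD, n = 2) proximally, 7.43% ± 0.359 in the middle and 24.2% ± 2.93 distally. LDHB remained the more abundant of both transcripts everywhere, by 20.2-fold and 16.5-fold in the proximal and 3.52-fold and 2.80-fold in the distal libraries. For a single value in 2 libraries against 2, an exact two-sided permutation test cannot go below p = 0.333, and it gave p = 0.333 for each pair of regions.

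Set against GAPDH, LDHA showed closer values between the sets. Its level was 0.766% and 0.979% of the GAPDH level in the proximal, 1.45% and 1.46% in the middle and 4.14% and 4.27% in the distal piece. The distal share was 5.41-fold the proximal share in the first set and 4.36-fold in the second. Whether GAPDH itself was constant cannot be read from this ratio.

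**Figure D2:**
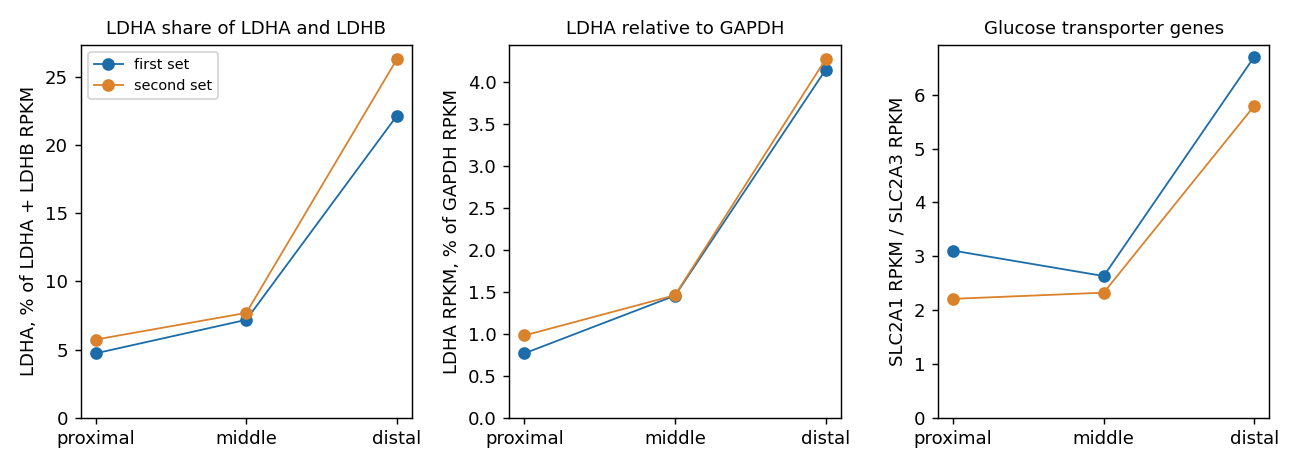
Ratios within each library by region, with a line for each set: LDHA as a percentage of LDHA plus LDHB RPKM, LDHA as a percentage of GAPDH RPKM, and SLC2A1 RPKM over SLC2A3 RPKM. All 3 ratios are highest in the distal piece in both sets, with LDHA shares of 22.1% and 26.3%.

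The glucose transporter genes went apart as well. SLC2A1 encodes GLUT1, the transporter for basal glucose uptake, which also serves blood-tissue barriers in mammals. It measured 21.5 and 28.0 RPKM in the proximal, 25.7 and 31.9 in the middle and 46.0 and 53.3 in the distal libraries. Both distal libraries lay above all others, and the proximal and middle libraries overlapped. The distal level was 2.14-fold and 1.91-fold the proximal one, a difference of 0.99 ± 0.19 (95% interval 0.51 to 1.46), which did not pass in limma (adjusted p = 0.0960 with the block and 1.0 without). Distal against middle gave 0.77 ± 0.19, with blocked adjusted p = 0.327 in limma. In the blocked model without the first-set or the second-set proximal library, distal against proximal was 0.93 and 1.04.

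SLC2A3 encodes GLUT3, which in mammals is the high-affinity transporter of neurons. It measured 6.92 and 12.7 RPKM in the proximal, 9.76 and 13.7 in the middle and 6.86 and 9.19 in the distal libraries. The middle value was the highest and the distal value the lowest in each set, though distal and proximal nearly tied in the first set (0.991-fold). Both distal libraries lay below both middle ones, and the proximal libraries overlapped with those of each other region. Distal differed from proximal by -0.22 ± 0.23 and from middle by -0.49 ± 0.23, and neither passed (limma, blocked adjusted p = 0.618 and 0.760). With the block, middle against proximal was 0.46 without the second-set proximal library. The ratio of SLC2A1 to SLC2A3 was 3.11 and 2.21 in the proximal, 2.63 and 2.32 in the middle and 6.71 and 5.80 in the distal piece, so that the distal libraries lay apart from the others. Neuron markers were lower in the same comparison, and their part in the SLC2A3 values was not tested.

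Among the glycolytic enzymes, PGK1, ENO1 and TPI1 had values above 0 between distal and proximal in both sets, but none passed the threshold. PGK1, phosphoglycerate kinase, makes the first ATP of the pathway. It measured 286 and 155 RPKM in the proximal, 367 and 179 in the middle and 501 and 255 in the distal libraries, and the regions overlapped across sets. The order of the regions was the same in both sets, with 1.75-fold and 1.64-fold more in the distal piece. The difference was 0.76 ± 0.20 with a 95% interval of 0.27 to 1.24 (limma, blocked adjusted p = 0.163). Without the first-set or the second-set proximal library it was 0.69 and 0.82 with the block. Middle against proximal was 0.35 with the block and without the second-set proximal library.

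ENO1, alpha-enolase, forms phosphoenolpyruvate. Its libraries held 1125 and 853 RPKM proximally, 1411 and 865 in the middle and 1741 and 1179 distally. Both distal libraries lay above both proximal ones. The difference was 0.55 ± 0.23 (1.55-fold and 1.38-fold, limma blocked adjusted p = 0.356), and with the block it was 0.43 without the first-set proximal library (limma adjusted p = 0.0739) and 0.67 without the second (0.00398). Distal against middle had 0.37 ± 0.23 and did not pass (limma, blocked adjusted p = 0.944).

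TPI1, triosephosphate isomerase, interconverts the triose phosphates. It measured 298 and 252 RPKM in the proximal, 465 and 257 in the middle and 584 and 299 in the distal libraries. The distal and proximal libraries did not overlap, by a margin of 298 against 299 RPKM. The sets disagreed on the size, with 0.97 in the first and 0.25 in the second, and the mean difference was 0.61 ± 0.25 (limma, blocked adjusted p = 0.351). Without the first-set proximal library it was 0.28 with the block, and without the second 0.94. Middle against proximal was 0.00043 without the first and 0.67 without the second, also with the block.

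GAPDH and PGAM1 had opposite signs in the sets between distal and proximal. GAPDH, glyceraldehyde-3-phosphate dehydrogenase, was the most abundant member, with ranks by RPKM from 6 to 19 among all genes. It measured 6139 and 3164 RPKM in the proximal, 5098 and 3044 in the middle and 5489 and 3598 in the distal libraries. The distal difference from proximal was -0.16 in the first set and 0.19 in the second, with a mean of 0.01 ± 0.28 and a 95% interval of -0.67 to 0.70. With the block it was 0.15 without the first-set and -0.13 without the second-set proximal library. Against the middle piece, distal GAPDH differed by 0.11 in the first and 0.24 in the second set.

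PGAM1, phosphoglycerate mutase, measured 1220 and 439 RPKM in the proximal, 856 and 572 in the middle and 1038 and 681 in the distal libraries. The distal difference from proximal was -0.23 in the first and 0.63 in the second set (mean 0.20 ± 0.30). Against the middle piece, distal differed by 0.28 in the first and 0.25 in the second set. The limma blocked adjusted p between distal and proximal was 0.983 for GAPDH and 0.721 for PGAM1. Between distal and proximal PGAM1 had 0.64 without the first-set proximal library (adjusted p = 0.0185 in blocked limma) and -0.24 without the second (0.0730), and middle against proximal had -0.50 without the second (adjusted p = 0.0100).

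**Figure D3:**
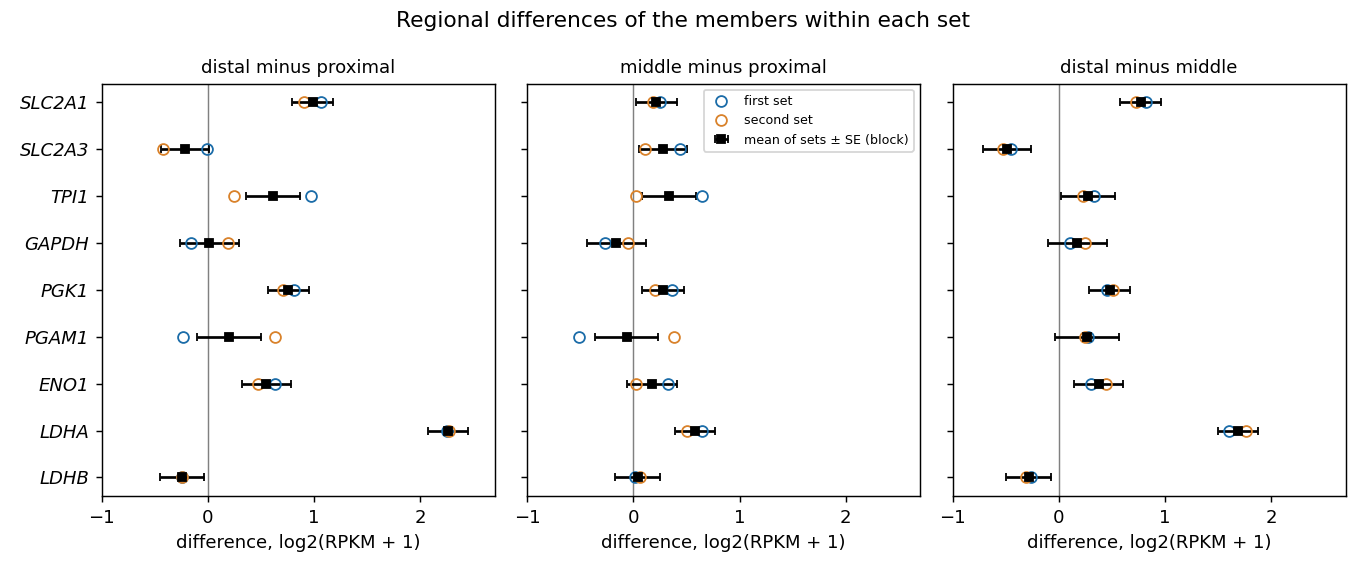
Difference between 2 regions for each gene in log2(RPKM + 1), as the value within each set (open circles) and their mean ± SE from the model with the replicate block (black squares). LDHA stands at 2.26 between distal and proximal, with both sets on nearly the same value, while PGAM1 and GAPDH have the sets on opposite sides of 0.

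Counted over the members, 5 of 9 had a distal value above the proximal one in both sets (SLC2A1, TPI1, PGK1, ENO1 and LDHA), and 2 had the reverse (SLC2A3 and LDHB). Over all genes tested these shares were 33.3% and 24.7%. SLC2A3 was a near tie in the first set, at 0.991-fold. The members' median difference was 0.55, beside 0.10 over all genes. For 4 members (SLC2A1, TPI1, ENO1 and LDHA) the distal libraries lay above both proximal ones, as they did for 13.1% of all genes, and for 0 members did they lie below both, beside 10.3% of all genes. For 1 of 9 (LDHA) the higher level passed with the block, where 0.247% of all genes did. The same 5 of 9 rose from proximal over middle to distal in both sets, beside 8.55% of all genes. That order includes the higher distal value, so it is not a separate count.

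The middle piece was also set against each end. Between middle and proximal 7 members were higher in both sets and 1 (GAPDH) was lower, beside 20.8% and 14.6% of all genes. The median was 0.22 over the members and 0.08 over all genes. Some of the 7 were near ties, with LDHB at 1.01-fold and 1.05-fold, and TPI1 and ENO1 at 1.02-fold in the second set. For SLC2A3, TPI1, PGK1, ENO1 and LDHB the sign in this pair turned when certain single libraries were left out. LDHA had the member difference furthest from 0, at 0.58, and no member's libraries lay apart, where 5.76% of all genes were higher and 4.82% lower without overlap. Between distal and middle 7 members were higher in both sets and SLC2A3 and LDHB lower, beside 39.9% and 30.6% of all genes. The median of that pair was 0.28 over the members and 0.03 over all genes. LDHA and SLC2A1 were higher and SLC2A3 lower without overlap in that pair, as were 12.1% and 8.92% of all genes. The comparisons share libraries, so these counts are not independent of each other.

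In RPKM, which is per length, GAPDH was the highest member in every region, with a mean of 4651 ± 2104 RPKM in the proximal and 4543 ± 1338 in the distal piece (SD, n = 2). ENO1 (989 ± 193 proximally and 1460 ± 397 distally), PGAM1 (829 ± 553 and 859 ± 252) and LDHB (729 ± 311 and 615 ± 261) followed, with SDs that overlapped in the proximal piece. TPI1 (275 ± 32.6 and 442 ± 201) and PGK1 (221 ± 92.1 and 378 ± 174) had SDs that overlapped at both ends, but TPI1 lay above PGK1 within 6 of 6 libraries. LDHA lay between PGK1 and SLC2A1 in this order at both ends. It had 39.0 ± 11.3 RPKM proximally, near SLC2A1 at 24.7 ± 4.57, and 190 ± 52.2 distally, where SLC2A1 had 49.6 ± 5.15. Its rank among all genes moved from 1885 and 2653 in the proximal to 372 and 363 in the distal libraries. SLC2A3 was the lowest, at 9.79 ± 4.06 and 8.02 ± 1.65 RPKM.

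The remaining enzymes of glycolysis were mixed between distal and proximal. Among 13 of them that were tested, distal lay above proximal in both sets for 4 and below it for 4 (median -0.04). Over all genes these shares were 33.3% and 24.7%, and 0 of the 13 passed. Without overlap 4 (HK1, HKDC1, GPI and PFKP) were higher and 1 lower, beside 13.1% and 10.3% of all genes. The hexokinase genes HK1 and HKDC1 had 0.23 ± 0.19 and 0.99 ± 0.21, with HKDC1 at 0.426 to 2.79 RPKM, whereas HK2 had 0.03 ± 0.39 and HK3 -0.75 ± 0.40. HK3 had -1.33 in the first and -0.17 in the second set, with 6.59 RPKM in the first-set proximal library. HK2 went from 53.1 to 32.0 RPKM in the first set and from 25.0 to 43.4 in the second, so the sets opposed each other. GPI, glucose-6-phosphate isomerase, had 0.27 ± 0.21.

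The phosphofructokinase genes, which encode the committed step, stood at 0.28 ± 0.22 (PFKP), -0.36 ± 0.33 (PFKL) and -0.41 ± 0.32 (PFKM). PFKL had -0.84 in the first and 0.13 in the second set, with 126 RPKM in the first-set proximal library. PFKM had -0.73 and -0.096 in the same order. PKM2, the name in the table for the pyruvate kinase gene of muscle and embryo, had -0.04 ± 0.25 at 650 to 1243 RPKM. ENO2, the neuronal enolase, had -0.09 ± 0.23, BPGM 0.14 ± 0.29 and PGAM5, a mitochondrial phosphatase gene of the mutase family, -0.24 ± 0.26. PKM2, BPGM and PGAM5 had opposite signs in the sets. Blocked adjusted p in limma for the genes of this list lay between 0.116 and 0.971.

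Transport of lactate and pyruvate was mixed. SLC16A1 and SLC16A3 encode the monocarboxylate transporters MCT1 and MCT4, and BSG encodes basigin, which brings them to the membrane. Their differences between distal and proximal were 0.44 ± 0.23, 0.59 ± 0.23 and 0.77 ± 0.27, each above 0 in both sets. BSG measured 340 and 373 RPKM in the proximal, 587 and 375 in the middle and 751 and 494 in the distal libraries, with both distal libraries above the 2 proximal ones. In the other direction BRP44L, which encodes the mitochondrial pyruvate carrier subunit MPC1, had -0.78 ± 0.23, with 61.4 and 29.7 RPKM proximally and 30.2 and 19.7 distally. Its partner BRP44 (MPC2) had -0.24 ± 0.37, with opposite signs in the sets.

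SLC16A7 had -0.35 ± 0.27, SLC16A8 -0.41 ± 0.21, LDHD, a mitochondrial D-lactate dehydrogenase gene, -0.03 ± 0.39, and EMB, a relative of basigin, 0.005 ± 0.33. The sets had opposite signs for LDHD (-0.69 in the first and 0.63 in the second), EMB (0.52 and -0.51) and SLC16A7 (0.0048 and -0.70). Among the 9 genes of this list, distal lay above proximal in both sets for 3 and below it for 2 (median -0.03). Over all genes these shares were 33.3% and 24.7%. Of the 9 genes 0 passed, with blocked adjusted p in limma between 0.213 and 0.994.

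Routes beside glycolysis had medians from -0.12 to 0.13 between distal and proximal, beside 0.10 over all genes, and 0 of their genes passed. Genes named from these lists, up to the MYC network below, are those with the smallest unblocked p in this comparison. They were thus picked for the difference given and do not stand for their lists. Among 15 citrate cycle genes the distal value was the higher one in both sets for 1 and the lower one for 8. Over all genes these shares were 33.3% and 24.7%, which also stand beside such counts for the lists below. The median of these 15 genes was -0.12, with -0.11 in the first set and -0.17 in the second, beside 0.19 and -0.0057 over all genes. Without overlap 4 were lower and 1 higher, beside 10.3% and 13.1% of all genes. SUCLG2 was at 0.79 ± 0.30, OGDH at -0.63 ± 0.29 and DLST at -0.53 ± 0.23. These encode a succinyl-CoA ligase subunit and parts of the oxoglutarate dehydrogenase complex. Among 10 genes of the pyruvate dehydrogenase complex and its regulators the median was -0.05 (2 higher, 3 lower), and PDK3, DLD and PDK1 had 0.34 ± 0.29, -0.22 ± 0.19 and -0.21 ± 0.20. PDK3 had 0.82 in the first and -0.13 in the second set. Of 8 pentose phosphate and ribose phosphate genes 2 were higher and 3 lower (median -0.08), with PRPS2 at 0.61 ± 0.25, RPE at -0.50 ± 0.31 and PRPS1 at -0.33 ± 0.21. RPE had -0.96 in the first and -0.032 in the second set, with 213 RPKM in the first-set proximal library.

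Glycogen genes were higher in both sets for 7 of 13 and lower for 1 (median 0.13), beside 33.3% and 24.7% of all genes. Without overlap 4 were higher and 1 lower, beside 13.1% and 10.3% of all genes. GYG1 and GBE1, which encode the glycogen primer glycogenin and the branching enzyme, had 0.85 ± 0.25 and 0.67 ± 0.22, and PGM2L1, a phosphoglucomutase relative, had -1.71 ± 0.29. Of 7 genes that set fructose bisphosphate or reverse the pathway, 2 were higher and 0 lower (median 0.07). PFKFB3, which makes the activator of phosphofructokinase, had 1.01 ± 0.23, with 5.28 and 13.9 RPKM proximally and 13.8 and 24.5 distally, and PCK2 and FBP1 had -0.44 ± 0.40 and 0.40 ± 0.23. PCK2 had -0.98 in the first and 0.11 in the second set. Only 2 other glucose transporter genes were tested, SLC2A8 at 0.28 ± 0.22 and SLC2A9 at 1.05 ± 0.28, the latter at 0.119 to 2.76 RPKM.

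Genes known as hypoxia targets were higher in both sets for 15 of 22 and lower for 3, beside 33.3% and 24.7% of all genes, and 0 passed. Their median was 0.62, with 0.90 in the first set and 0.28 in the second. STC2, stanniocalcin 2, measured 8.97 and 9.17 RPKM proximally and 24.8 and 28.1 distally (1.44 ± 0.24), and PLOD2, a collagen lysyl hydroxylase gene, had 1.19 ± 0.32. CA12, a carbonic anhydrase gene, went the other way, from 3.25 and 2.65 RPKM to a listed 0 and 0.173 (-1.86 ± 0.24, limma blocked adjusted p = 0.0526). The 9 regulators of the hypoxia response had a median of -0.08 with 1 higher and 2 lower. EGLN3, a prolyl hydroxylase gene, had 1.10 ± 0.26, EPAS1, which encodes HIF-2 alpha, -1.26 ± 0.24, and CITED2 -0.53 ± 0.30. Among 8 genes of the MYC network the median was -0.06 (1 higher, 1 lower), with MXD4 at 0.65 ± 0.23, MLXIP at -0.43 ± 0.22 and MYCN at -0.18 ± 0.25. MYCN had 0.12 in the first and -0.48 in the second set.

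**Figure D4:**
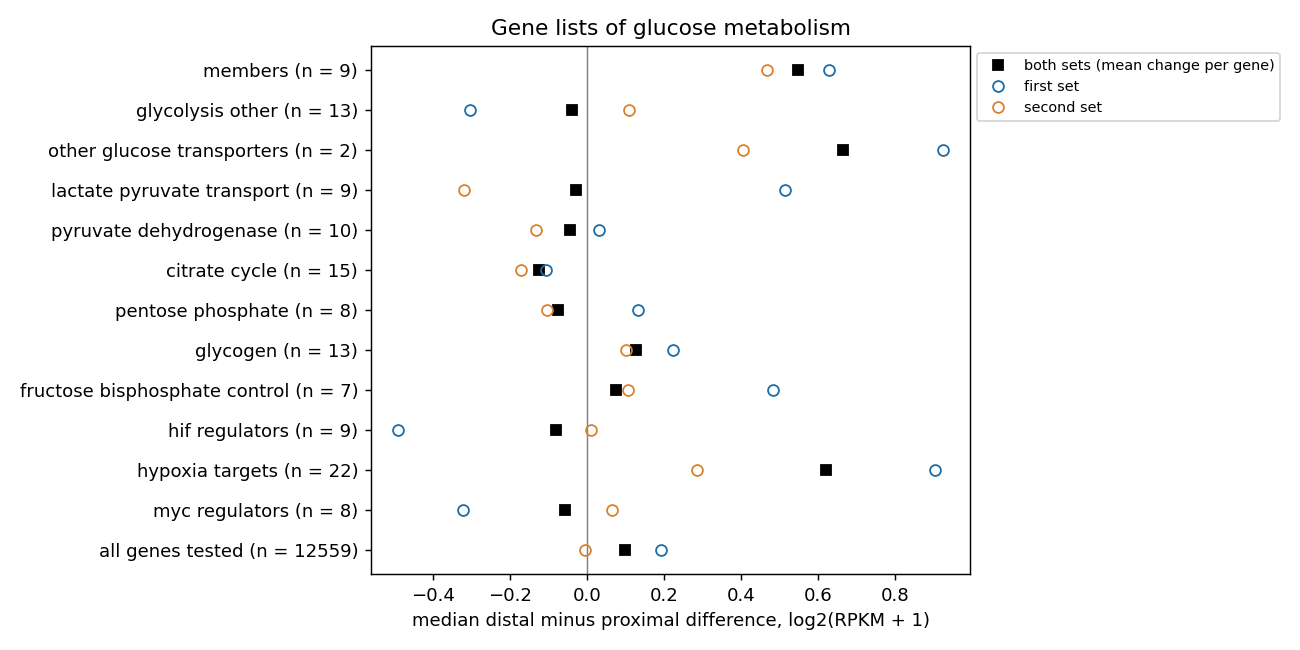
Median difference between distal and proximal of each gene list in log2(RPKM + 1), within each set (open circles) and for the mean of the sets (black squares), with the number of genes tested. The 9 members (0.55), hypoxia targets (0.62), glycogen genes (0.13) and 2 other glucose transporters (0.67) lie above the median of all genes (0.10) in both sets. The fructose bisphosphate list lies above it within each set, but not for the mean of the sets (0.07). The other glycolysis genes lie at -0.04 with the sets on opposite sides of 0.

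Other cell types differed between the same pieces. Between distal and proximal, 9 of 9 neuron, 3 of 4 glia and 7 of 7 red blood cell markers were lower in both sets (medians -0.95, -1.72 and -1.48). Over all genes tested, 24.7% were lower and 33.3% higher in both sets. With the block the neuron markers GAP43 and NEUROD1 passed as lower (limma adjusted p = 0.0341 and 0.0355), as did 0.279% of all genes. Without the block each had an adjusted p of 0.375 in limma. Summed neuron markers held 946 to 1072 RPKM proximally, 1043 to 1137 in the middle and 434 to 444 distally, and summed red blood cell markers 2778 to 5708, 1468 to 2239 and 1235 to 1591. Glia markers summed to 414 to 506, 336 to 476 and 243 to 291 RPKM, of which SOX10, also listed for otic epithelium, held 142 to 227 RPKM. Endothelial markers had like sums at both ends (68.3 to 71.5 and 65.9 to 67.8 RPKM). Of the 8 tested, 1 was higher and 3 were lower distally in both sets (median -0.16). Leukocyte markers summed to 34.1 to 46.7 RPKM proximally and 38.4 to 50.6 distally, of which CD74 held 23.2 to 42.8 RPKM over all libraries. Of 5 leukocyte markers tested, 3 (CSF1R, SPI1 and LCP1) were lower in both sets and without overlap, beside 10.3% of all genes lower without overlap. CD74 had 0.38, and the median of the 5 was -0.51. Cartilage markers summed to 718 to 991 proximally and 923 to 1190 distally, with 4 higher and 1 lower of 6, and mesenchyme markers to 214 to 309 and 222 to 333.

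Of 3 muscle markers tested 3 were lower distally in both sets, beside 24.7% of all genes. MYOD1 and MYOG stayed at or below 0.330 RPKM in every library. Pigment cell markers summed to at most 12.6 RPKM. Markers of otic epithelium, the labelled tissue, were listed above 0 in every library, and summed to 1517 to 1598, 1897 to 1976 and 2228 to 2446 RPKM from proximal to distal. Much of that sum was OC90 and EPCAM, with means of 503 and 160 RPKM proximally and 1060 and 311 distally. Of 11 otic markers, 5 were higher distally in both sets and 3 lower, beside 33.3% and 24.7% of all genes. The median of the 11 was 0.23 (-0.03 in the first and 0.45 in the second set). With the block 1 of the 11 passed as higher and 1 as lower, beside 0.247% and 0.279% of all genes. FGFR3 was at 2.79 (limma blocked adjusted p = 0.0163 and 0.731 without the block). OTOL1, which encodes the otoconial protein otolin, was at -4.40 (limma blocked adjusted p = 0.0145 and 0.194 without the block) and PAX2 at -0.61. The part of these shifts in the values of LDHA, SLC2A1 and the other members was not tested.

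LDHA was then compared with every tested gene whose name is a RefSeq symbol or synonym. The measure was Euclidean distance over the 6 libraries on the log2(RPKM + 1) scale after the mean of each set was subtracted. The nearest were GBE (distance 0.269), WNT5A (0.289), HTR1A (0.346), ADAMTS1 (0.349) and IGFN1 (0.383). WNT5A encodes a Wnt ligand that acts in planar cell polarity, HTR1A a serotonin receptor and ADAMTS1 a secreted metalloprotease. ADAMTS1 measured 18.2 and 31.3 RPKM in the proximal, 30.5 and 57.9 in the middle and 81.9 and 150 in the distal libraries, and WNT5A 11.4 and 18.0, 19.6 and 23.0, and 55.5 and 69.7. Both were higher in the second set in every region, unlike LDHA, since the distance ignores the set. HTR1A (0.863 and 2.11 RPKM proximally) and IGFN1 (0.214 and 0.899) lay near the added 1, which shrinks their log2 differences. Their distal levels were 10.3-fold and 4.74-fold (HTR1A) and 19.3-fold and 13.0-fold (IGFN1) the proximal ones, beside 4.84-fold and 4.96-fold for LDHA. All the nearest genes were picked for their likeness in these libraries, so their distal levels are a description. None of their names is in the glycolysis lists. GBE has a row apart from GBE1, the branching enzyme gene, and which gene the name GBE stands for was not resolved.

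**Figure D5:**
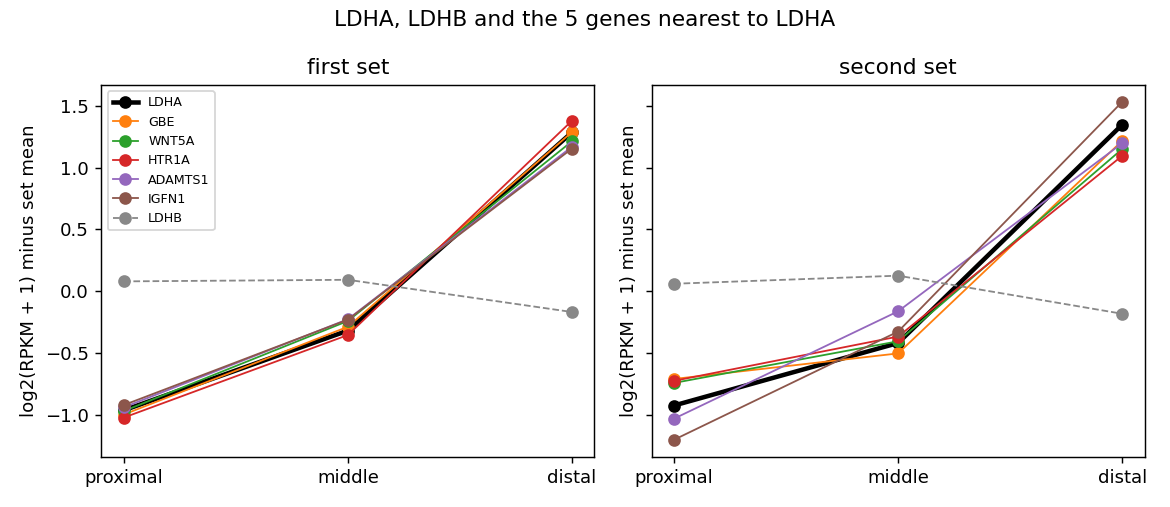
Level of LDHA, LDHB and the 5 genes nearest to LDHA by region, in log2(RPKM + 1) minus the gene's mean over the 3 regions of the set, with 1 panel per set. The 5 genes lie within a distance of 0.269 to 0.383 of LDHA over the 6 libraries, with the step between middle and distal in both sets, and LDHB (dashed) runs near 0.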

How the data were processed

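The authors deposited 1 table of RPKM values (reads divided by gene length and library alignments) with the number of alignments of each library. Per the labels' protocols, polyadenylated RNA was sequenced on an Illumina instrument after 1 of 2 kinds of Illumina kit, with no record here of which library had which kit. The submitters' processing notes name TopHat 1.4.0 and Partek 6.6. For genome build, annotation and strand, nothing is stated (not given in the sources used here). No positions are printed, and reads shared with near-identical copies could not be separated. Depth enters RPKM through the alignments, so a small library gives coarser values.

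Columns were tied to regions by their names, 2 per region, and 0 columns were left unmapped. Values were transformed to log2(RPKM + 1), and genes with at least 1 RPKM in at least 2 libraries were tested. Region was the factor of linear models over the 6 libraries, made in limma 3.58.1 (R 4.3.3) with trended empirical Bayes moderation (two-sided, Benjamini-Hochberg over all genes), with 3 residual degrees of freedom, and 2 with the set as a replicate block. The code was tested on simulated data.

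The sets pair the libraries: the difference between the sets correlated across genes at 0.659 (proximal and middle), 0.655 (proximal and distal) and 0.885 (middle and distal), and the pairing comes from the column names. Names matched RefSeq symbols (assembly GRCg7b) for 7 of 9 members. The members, the 21 gene lists and the tests were chosen with earlier results of these data known. Named genes were all members, all tested genes of the other glycolysis and the lactate and pyruvate transport lists, 3 genes with the smallest unblocked p in each other pathway list, and the 5 genes nearest to LDHA. One gene of the other glycolysis list is not reported here by name.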

Additional observations from a re-analysis of the deposited data

How the results depend on the processing

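With all 6 libraries kept, the 27 differences of the members kept their sign under every other pseudocount, filter, scaling and the replicate block, and the calls that changed were those of LDHA between distal and proximal, which passed in 5 settings, each with the block. Its adjusted p in limma over all alternatives ran from 5.4e-07 to 1.0. Called genes depended on the block: limma called 66 between distal and proximal and 9 in the F test over all regions with it, and 0 without it. Quantile normalization with the block gave 257 (distal against proximal), 3 (middle against proximal) and 65 (F test). With the block, and chosen after seeing the data, a pseudocount of 0.1 gave 36 between distal and proximal and 0 in the F test, no filter 0 in both, a filter of 5 RPKM 51, with 9 in the F test, and equal summed RPKM 87, with 21 in the F test.

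With 1 library left out in turn, with or without the block, counts ran from 0 to 6994 (distal against proximal, the highest without the second-set proximal library), 0 to 5595 (middle against proximal), 0 to 1231 (distal against middle) and 0 to 6581 (F test). With the block such a fit has 1 residual degree of freedom. Without the block, leaving out 1 library also unbalances the sets. Signs then turned for SLC2A3 (-0.61 to 0.18 distal against proximal and -0.12 to 0.67 middle against proximal), TPI1 (-0.094 to 0.76 middle against proximal and -0.21 to 0.76 distal against middle), GAPDH (-0.47 to 0.49, -0.64 to 0.32 and -0.20 to 0.55 for distal against proximal, middle against proximal and distal against middle), PGAM1 (-0.54 to 0.94, -0.80 to 0.67 and -0.040 to 0.57 in the same order) and LDHB (-0.69 to 0.20, -0.41 to 0.49 and -0.73 to 0.16). PGK1 ranged from -0.23 to 0.80 (middle against proximal) and -0.038 to 0.99 (distal against middle), and ENO1 from -0.18 to 0.53 (middle against proximal). LDHA ranged from 1.97 to 2.55 and SLC2A1 from 0.80 to 1.17 between distal and proximal.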
